A study of Mus musculus with 4 samples.

Results

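Expression of 10 genes of the skeletal muscle sarcomere and of the proteins that drive its contraction was examined in mouse lung. The genes were taken by symbol: Acta1, Tnnt3 and Tnni2 of the thin filament, Myh4 and Mylpf of the thick filament, Actn3 and Myoz2 of the Z line, Cacna1s and Pvalb of calcium handling, and Ckm of energy supply. All 10 were found among 23282 gene rows. They were chosen with earlier results of these data known, and the study describes 4 of them (Acta1, Actn3, Myoz2 and Cacna1s) as picked from lung genes with opposite exercise effects. In the files used here Acta1 and Myoz2 had exercise effects of opposite sign, past the 2-fold limit for Acta1 alone, and Actn3 and Cacna1s had effects of the same sign. Lung RNA of CDF1 mice was read in 4 libraries, 1 for each of 4 groups that crossed treadmill exercise (E) with tumor (T). The normal control group, E(-)T(-), had neither exercise nor tumor, and the normal exercise group, E(+)T(-), ran on the treadmill at high intensity without tumor cells. The cancer control group, E(-)T(+), received CT26 cells through the tail vein and did not exercise, and the cancer exercise group, E(+)T(+), received CT26 cells and exercised. CT26 is a mouse colorectal carcinoma line, so that the tumor model rests on 1 cell line. The labels give postnatal day 28 and 10 mice in each group, and the mice were male according to the methods, which give about that age as the age at purchase. By the methods tissue was taken at the end of the experiment, after purchase, so that day 28 is not the age at sampling. The study took calf muscle from 1 representative animal of each group and looked at the lungs in a similar way, and whether a lung library is 1 mouse or a pool is not said outright.

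In a skeletal muscle fibre, myosin of the thick filament pulls on actin of the thin filament, and troponin and tropomyosin on the thin filament let this happen only when calcium is high. Thin filaments of neighbouring sarcomeres are anchored at the Z line. A voltage sensor in the fibre membrane opens the calcium store, parvalbumin takes calcium up again in fast fibres, and creatine kinase refills ATP. Lung parenchyma holds no skeletal muscle fibres, but mouse lung veins carry a sleeve of heart muscle, and airways and vessels carry smooth muscle.

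Recovered reads came to between 9354551 and 13367973 per library, and 3 reads, the floor used here, were 0.224 to 0.321 CPM (the usual share of reads scaled for library total). Hemoglobin genes took 14.3% of the reads in the normal control library, 14.2% in E(+)T(-), 1.43% in the cancer control library and 31.4% in E(+)T(+). E(-)T(+) stood apart from the other libraries: 11 of 12 lung epithelium genes were at least 2-fold lower there than in E(-)T(-), with summed levels of 15384 CPM there and 46401 to 70684 CPM in the other libraries. With 1 library per group, every comparison below sets one library against another, without a replicate check. The part that tissue makeup had in the values of the sarcomere genes was not tested. Nor can more cells of a type be told apart from more RNA per cell in whole lung.

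Genes that define adult fast fibres were uneven in these lungs: the heavy chains Myh4, Myh1 and Myh2 of adult fast fibres were at 10 reads or fewer in each library, while others, such as the fast fibre calcium pump Atp2a1, were read in every library. The cells that made the RNA of the 10 genes are therefore not named here. Myh4, the fastest myosin heavy chain of limb muscle, had 0, 0, 1 and 1 reads in the control and exercise libraries without tumor and in the control and exercise libraries with tumor, the order used for all values given as 4. Of other fast heavy chains, Myh1 had 0, 3, 10 and 1 reads and Myh2 had 0, 0, 4 and 0. Myh13, the superfast heavy chain of eye muscles, had 6, 11, 0 and 3. The muscle regulators Myod1 and Myog and the satellite cell factor Pax7 were at 0 in every library. Not all muscle regulators and fibre maintenance genes were unread: Myf6 had 0, 0, 5 and 0 reads and Musk had 1, 0, 0 and 4. Casq1, the calcium store protein of fast fibres, had 2, 1, 1 and 0 reads. The 10 genes together had 283, 179, 169 and 319 reads, while 16 heart muscle genes had 2340, 2292, 666 and 1432 reads. A library of skeletal muscle was not analysed here, so that no level in muscle stands beside these values.

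Primer pairs that the study used for RT-qPCR are printed for the 4 genes for which it measured them, since the position of a primer pair shows which stretch of a transcript it reads, while the sequencing reads mark the 3' end.
Acta1 forward: gaccacagctgaacgtgaga
Acta1 reverse: gaaacgctcattgccgatgg
Actn3 forward: gagctcgactaccatgaggc
Actn3 reverse: gccagttattgaagggggct
Myoz2 forward: acagggttgccactccattt
Myoz2 reverse: taaagcatcgtctgcccgaa
Cacna1s forward: aagcccaggggctattttgg
Cacna1s reverse: tccacccaggcaatacagtc
Each pair matched transcripts of its own gene and of no other gene in the GENCODE M21 annotation of GRCm38, the assembly called mm10. The Acta1 pair spanned 163 bases of coding sequence in exons 4 to 5 of 7 at chr8:123892581-123892840, on the minus strand and 603 bases from the 3' end of the transcript. The Actn3 pair spanned 187 coding bases in exons 13 to 14 of 21 at chr19:4864487-4864760, minus strand, 1220 bases from the 3' end. Myoz2 was covered over 141 coding bases in exons 5 to 6 of 6 at chr3:123006481-123013603, minus strand, 275 bases from the end. For Cacna1s the pair covered 135 coding bases in exons 27 to 29 of 44 at chr1:136100702-136104611, plus strand, 2600 bases from the end. The Myoz2 pair thus lay closest to the end that the libraries read, and the Cacna1s pair farthest from it.

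Upstream sequences from RefSeq (GRCm38.p6) are printed for the gene with the widest spread between libraries (Acta1), the gene with the fewest reads (Myh4) and the gene with the largest difference between the tumor-free libraries (Cacna1s), 5' to 3' on the strand of the gene. Capitals mark matches to CAGCTG (a form of the E-box bound by muscle regulators of the MyoD family), CATTCC (the MCAT element), TATAAA, the CArG box (bound by serum response factor) and the MEF2 site, searched on both strands.
Acta1: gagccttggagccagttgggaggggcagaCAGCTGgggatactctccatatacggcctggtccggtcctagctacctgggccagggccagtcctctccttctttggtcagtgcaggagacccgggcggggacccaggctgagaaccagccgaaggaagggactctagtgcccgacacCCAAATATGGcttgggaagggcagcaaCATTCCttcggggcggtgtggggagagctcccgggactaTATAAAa
Myh4: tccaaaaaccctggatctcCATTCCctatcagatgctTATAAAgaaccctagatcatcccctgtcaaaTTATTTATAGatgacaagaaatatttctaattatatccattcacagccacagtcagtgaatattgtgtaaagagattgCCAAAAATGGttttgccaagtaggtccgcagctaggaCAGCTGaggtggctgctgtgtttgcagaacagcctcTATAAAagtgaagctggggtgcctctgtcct
Cacna1s: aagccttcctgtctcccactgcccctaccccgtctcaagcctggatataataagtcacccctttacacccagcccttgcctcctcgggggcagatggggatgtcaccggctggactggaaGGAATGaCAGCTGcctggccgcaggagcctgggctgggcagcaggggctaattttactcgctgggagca
The Acta1 sequence lies at chr8:123894776-123895025 on the minus strand, the Myh4 sequence at chr11:67237562-67237811 on the plus strand and the Cacna1s sequence at chr1:136052561-136052749 on the plus strand. Entries matched 7 of the 10 genes, all but Actn3, Tnnt3 and Tnni2. Within 250 bases before the start, CAGCTG was found in 6 of the 7 (Acta1, Myh4, Mylpf, Myoz2, Cacna1s and Ckm) and in 13.0% of 32851 promoters. CATTCC was found in 3 of the 7 (Acta1, Myh4 and Cacna1s) and in 12.6% of all promoters, and TATAAA in 2 (Acta1 and Myh4) and in 12.4%. A CArG box was found in 2 (Acta1, 73 bases before the start, and Myh4, 104 bases before it) and in 1.47% of all promoters. A MEF2 site was found in 3 (Myh4, Myoz2 and Pvalb) and in 2.92%, and that of Myh4 overlaps a TATAAA match on the other strand. These matches describe the letters alone.

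**Figure D1:**
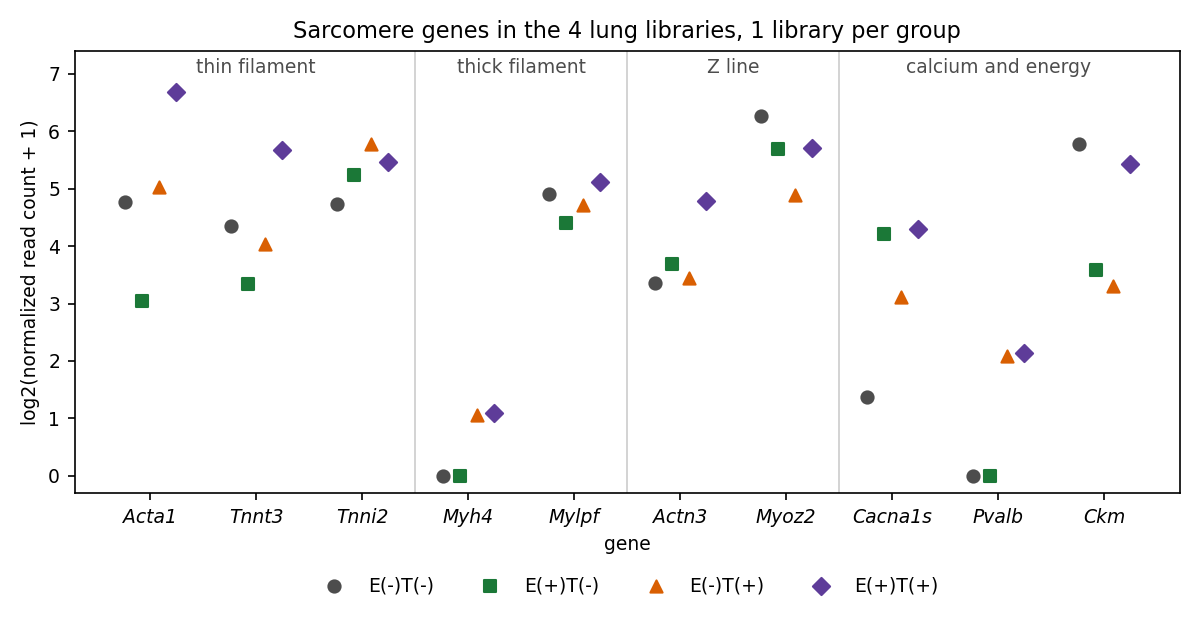
Deposited level of each sarcomere gene, log2(normalized read count + 1), in the 4 lung libraries, with 1 point per library and genes grouped by role. Acta1 runs from 3.05 in E(+)T(-) to 6.68 in E(+)T(+), and Myh4 and Pvalb are at 0 in both libraries without tumor.

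Levels are given as whole reads, recovered from the deposited values, and as normalized read counts, which the authors scaled to a common library size. Since a read marks a transcript's end, transcript length has little weight in comparisons between genes. Mean normalized read counts of the 10 genes ran from 0.556 (Myh4) to 51.6 (Myoz2), from the 25.5 to the 52.1 percentile of all rows. The order of the means was Myoz2, Acta1, Tnni2, Ckm, Mylpf, Tnnt3, Actn3, Cacna1s, Pvalb and Myh4, and neighbours in it overlapped in their range over the libraries. A filter at a mean of at least 4 was passed by 8 genes, all but Myh4 and Pvalb.

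Of the thin filament, Acta1, the actin of skeletal muscle that heart muscle also makes, lies at chr8:123891769-123894751 on the minus strand. It had 31, 8, 29 and 87 reads, or 26.3, 7.28, 31.8 and 101 normalized read counts. Acta1 was highest in E(+)T(+) and lowest in E(+)T(-), the libraries of the exercise groups, with both sedentary libraries between them. The annotated gene Gm20388 covers the 3' end of Acta1 on the opposite strand and is not a row of the files, so that its reads cannot be told apart from those of Acta1 where counting ignored strand. Tnnt3, the fast troponin T that ties the troponin complex to tropomyosin (chr7:142498836-142516009, plus strand), had 23, 10, 14 and 43 reads, or 19.5, 9.13, 15.4 and 50.0 normalized read counts. Its highest and lowest libraries were those of Acta1. Tnni2, the fast troponin I that blocks myosin binding at low calcium (chr7:142441808-142444410, plus strand), had 30, 40, 49 and 37 reads, or 25.4, 36.7, 53.6 and 43.3 normalized read counts. Tnni2 thus had another order, with E(-)T(+) highest and E(-)T(-) lowest, and it spanned 1.05 on the log2 scale against 3.63 for Acta1.

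Of the thick filament, Myh4 (chr11:67238029-67260446, plus strand) did not reach 3 reads in any library, so that no fold is given. Mylpf, the phosphorylatable light chain of fast myosin (chr7:127208890-127214298, plus strand), had 34, 22, 23 and 29 reads, or 28.9, 20.2, 25.2 and 33.9 normalized read counts. Mylpf was the steadiest of the 8 genes that passed the filter, with a range of 0.72 on the log2 scale, and its highest library was E(+)T(+) on that scale but E(-)T(-) in CPM (2.61 against 2.17). Myosin light chain was therefore read in every library in which its fast heavy chain Myh4 was absent or at 1 read.

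At the Z line, Actn3, the alpha-actinin of fast fibres that crosslinks actin (chr19:4861216-4877909, minus strand), had 11, 13, 9 and 23 reads, or 9.28, 11.9, 9.90 and 26.7 normalized read counts. E(+)T(+) was above the other 3 libraries, which lay close together. Myoz2, the calcineurin-binding Z-line protein of heart and slow fibres (chr3:123006206-123035015, minus strand), had 89, 55, 26 and 44 reads, or 75.7, 50.5, 28.5 and 51.5 normalized read counts. Myoz2 was highest in E(-)T(-) and lowest in E(-)T(+), with both exercise libraries between them, at nearly the same level on the normalized scale.

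Of the genes of calcium and energy, Cacna1s, the voltage sensor of the fibre membrane (chr1:136052750-136119822, plus strand), had 2, 19, 7 and 16 reads, or 1.60, 17.5, 7.71 and 18.6 normalized read counts. Both exercise libraries were above both sedentary ones, and E(-)T(-), with 2 reads, was under the floor. The antisense gene Gm37759, not a row of the files, covers the 3' end of Cacna1s, so that its reads may be counted there. Pvalb, parvalbumin, the calcium buffer of fast fibres (chr15:78191114-78206400, minus strand), had 0, 0, 3 and 3 reads. It was read in both tumor libraries and in neither of the others, but at no more than the floor, so that no fold is given. Ckm, the muscle creatine kinase (chr7:19404776-19422841, plus strand), had 63, 12, 8 and 36 reads, or 53.7, 11.0, 8.84 and 42.0 normalized read counts. The antisense gene A930016O22Rik overlaps Ckm away from its 3' end and had 19, 8, 11 and 15 reads in its own row, and without strand reads of both could be shared. Ckm was high with neither exercise nor tumor and with both, and low with either alone. Ckm spanned 2.48 on the log2 scale, against 1.38 for Myoz2, which was also highest in E(-)T(-) and lowest in E(-)T(+).

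**Figure D2:**
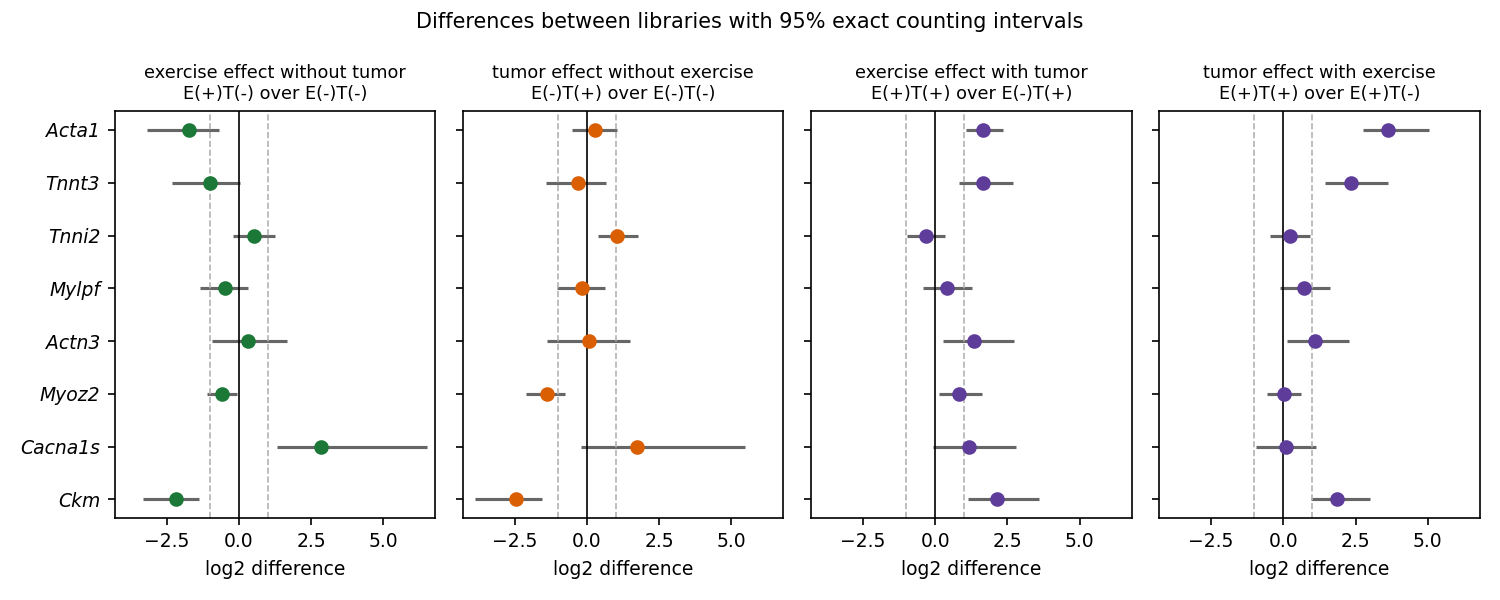
Log2 difference of the deposited values (points) and 95% exact counting interval of the read ratio (bars) for the 8 sarcomere genes that passed the filter, in 4 comparisons between libraries, with dashed lines at the 2-fold limit. Acta1 reads -1.72 for exercise without tumor and 3.63 for tumor with exercise.

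To assess the exercise effect without tumor, E(+)T(-) was set over E(-)T(-). Ckm, Acta1 and Tnnt3 were at least 2-fold lower after exercise, and Cacna1s was higher. On the log2 scale Ckm differed by -2.19 (95% exact interval of the read ratio -3.31 to -1.38). Acta1 differed by -1.72 (-3.17 to -0.69) and Tnnt3 by -1.02, where the interval from -2.32 to 0.04 held 0. Cacna1s differed by 2.83, and its 2 reads in the control leave a wide interval of 1.31 to 6.51. Myoz2 was lower by less than the limit, at -0.57 (-1.09 to -0.08). Intervals of Tnni2 (0.51), Mylpf (-0.50) and Actn3 (0.33) held 0. Thus 1 of the 8 genes that passed the filter was past the limit upward and 3 downward, where 5.28% and 4.7% of 15164 filtered genes were past it. The median difference was -0.25 over the 10 genes, of which Myh4 and Pvalb had no read in either library, and -0.54 over the 8 that passed the filter, beside 0.00 over all filtered genes. Among adipocyte genes 4 of 9 filtered were at least 2-fold lower in the same comparison and 0 higher, with a median of -0.87, and of the heart muscle list none of 15 was past the limit. Intervals cover counting error alone, since PCR copies are not independent molecules, and with scaling by median of ratios Tnnt3 was inside the limit at -0.99.

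To assess the tumor effect without exercise, E(-)T(+) was set over E(-)T(-). Ckm and Myoz2 were lower in the tumor library, and Tnni2 and Cacna1s were higher. Ckm differed by -2.48 (-3.88 to -1.54) and Myoz2 by -1.38 (-2.10 to -0.76). Tnni2 differed by 1.05 (0.39 to 1.78), while the interval of Cacna1s, 1.75 (-0.22 to 5.48), held 0. Acta1 (0.27), Tnnt3 (-0.32), Mylpf (-0.19) and Actn3 (0.08) were within the limit, with 0 in their intervals. Past the limit were 2 of the 8 genes that passed the filter upward and 2 downward, beside 20.6% and 25.7% of all filtered genes. Myh4 and Pvalb, at or under the floor in both libraries, are not counted. The counts of the 8 genes were near this background. The median size of a difference, regardless of sign, was 1.05 for the 10 genes, with Myh4 and Pvalb at or under the floor, and 0.69 for the 8 that passed the filter, below the 0.90 of all filtered genes. In the same comparison 9 of 10 smooth muscle genes and 8 of 15 filtered heart muscle genes were at least 2-fold lower, and none of either list was higher. With scaling by totals without hemoglobin, Tnni2 was inside the limit at 0.96.

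The exercise effect with tumor was assessed by E(+)T(+) over E(-)T(+). Ckm, Acta1, Tnnt3, Actn3 and Cacna1s were at least 2-fold higher in the exercised library, and no gene was lower by that much. Ckm differed by 2.13 (1.13 to 3.58), Acta1 by 1.64 (1.06 to 2.34) and Tnnt3 by 1.64 (0.81 to 2.70). Actn3 differed by 1.35 (0.28 to 2.74), and the interval of Cacna1s, 1.17 (-0.08 to 2.81), held 0. Myoz2 was higher within the limit, at 0.83 (0.12 to 1.61), whereas Mylpf (0.41) and Tnni2 (-0.30) had 0 in their intervals. Past the limit were 5 of the 8 genes that passed the filter upward and 0 downward, beside 24.3% and 17.7% of all filtered genes. Differences were above 0 for 9 of the 10 genes, but for 6 when reads were scaled by library totals. Of the 3 that turned, Mylpf passed the filter, and Myh4 and Pvalb had equal reads, at or under the floor, in both libraries. Library totals moved the median of all filtered genes from 0.009 to -0.59. With library totals Acta1 was still past the limit, at 1.05, and Actn3, at 0.79, and Cacna1s, at 0.62, were not. Other lists were also higher here, with 10 of 12 lung epithelium genes, 9 of 10 smooth muscle genes, 7 of 7 erythroid genes and 9 of 15 filtered heart muscle genes at least 2-fold higher. Of the heart muscle list 3 were lower, and its median was 1.34.

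The tumor effect with exercise was assessed by E(+)T(+) over E(+)T(-). Acta1, Tnnt3, Ckm and Actn3 were higher with tumor. The Acta1 difference, 3.63 (2.75 to 5.05), was the largest of the 10 genes in the 4 comparisons. Tnnt3 differed by 2.33 (1.44 to 3.61), Ckm by 1.84 (0.96 to 3.01) and Actn3 by 1.10 (0.13 to 2.27). Mylpf (0.72), Tnni2 (0.23), Cacna1s (0.08) and Myoz2 (0.03) were within the limit, with 0 in their intervals. Past the limit were 4 of the 8 genes that passed the filter upward and 0 downward, beside 14.9% and 13% of all filtered genes, with Myh4 and Pvalb again not counted. All 10 differences were above 0 on the deposited scale, those of Myh4 and Pvalb between counts at or under the floor, and 7 were with library totals, which left Actn3 inside the limit at 0.71. The median of all filtered genes was -0.003 on the deposited scale. The median size of a difference was 1.10 for the 10 genes and 0.91 for the 8 that passed the filter, beside 0.57 over all filtered genes. None of 10 smooth muscle genes was past the limit in this comparison, and of the heart muscle list 0 of 15 filtered genes were higher and 5 lower. All 7 erythroid genes were higher, the median by 1.69, and hemoglobin took 31.4% of the reads in E(+)T(+) against 14.2% in E(+)T(-).

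**Figure D3:**
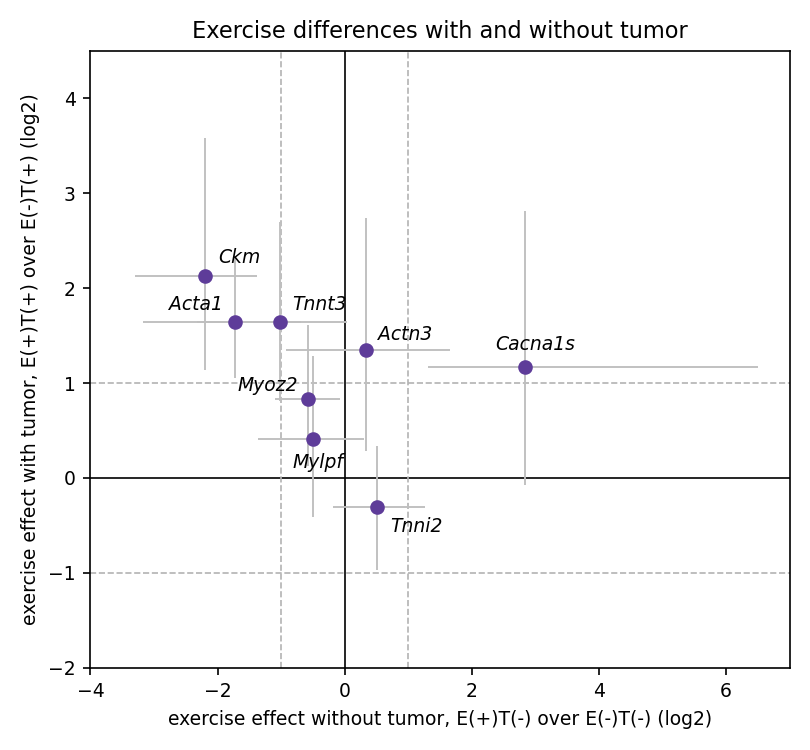
Exercise effect without tumor (x axis) against exercise effect with tumor (y axis), both as log2 differences, for the 8 sarcomere genes that passed the filter, with 95% exact counting intervals as bars and the 2-fold limits dashed. Ckm, Acta1 and Tnnt3 lie at the upper left, lower after exercise without tumor and higher after exercise with tumor.

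Exercise effects past the limit in opposite directions, lower without tumor and higher with it, were found for 3 of the 8 genes that passed the filter (Acta1, Tnnt3 and Ckm), beside 1.46% of all filtered genes (222 of 15164). The other direction, higher without tumor and lower with it, was found for 0 of the 8 and for 255 of all filtered genes. Of the 4 genes that the study describes as picked for opposite exercise effects, Acta1 is among these 3, Myoz2 was within the limit at -0.57 and 0.83, and Actn3 (0.33 and 1.35) and Cacna1s (2.83 and 1.17) had the same sign in both comparisons. The study also measured Acta1, Actn3, Myoz2 and Cacna1s by RT-qPCR in littermates, and it describes their change as matching its sequencing. Values of that assay were not compared here. In its discussion the study names Acta1, Actn3 and Myoz2, but not Cacna1s, among lung genes with reverse changes between exercise and cancer. Read as exercise and tumor each set over E(-)T(-), that is another contrast than the one between both exercise effects. In that contrast exercise and tumor gave -1.72 and 0.27 for Acta1, 0.33 and 0.08 for Actn3, and -0.57 and -1.38 for Myoz2. Since the genes were chosen with earlier results known, the count of 3 is a description and no independent evidence. By sign alone, of any size, 6 of the 8 genes that passed the filter had opposite exercise effects (Acta1, Tnnt3, Ckm, Myoz2, Mylpf and Tnni2, the last in the other direction, and Mylpf not with library totals), beside 49.8% of all filtered genes. Each exercise effect has its own pair of libraries, so that no control is shared between them. For Ckm the sizes were -2.19 and 2.13 and for Acta1 -1.72 and 1.64. Opposite directions for Acta1 and Ckm were kept with every scaling and pseudocount tried, while Tnnt3 had its first difference inside the limit with median of ratios (-0.99) or a pseudocount of 4 (-0.84). No test of the difference between both exercise effects was possible with 1 library per group.

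**Figure D4:**
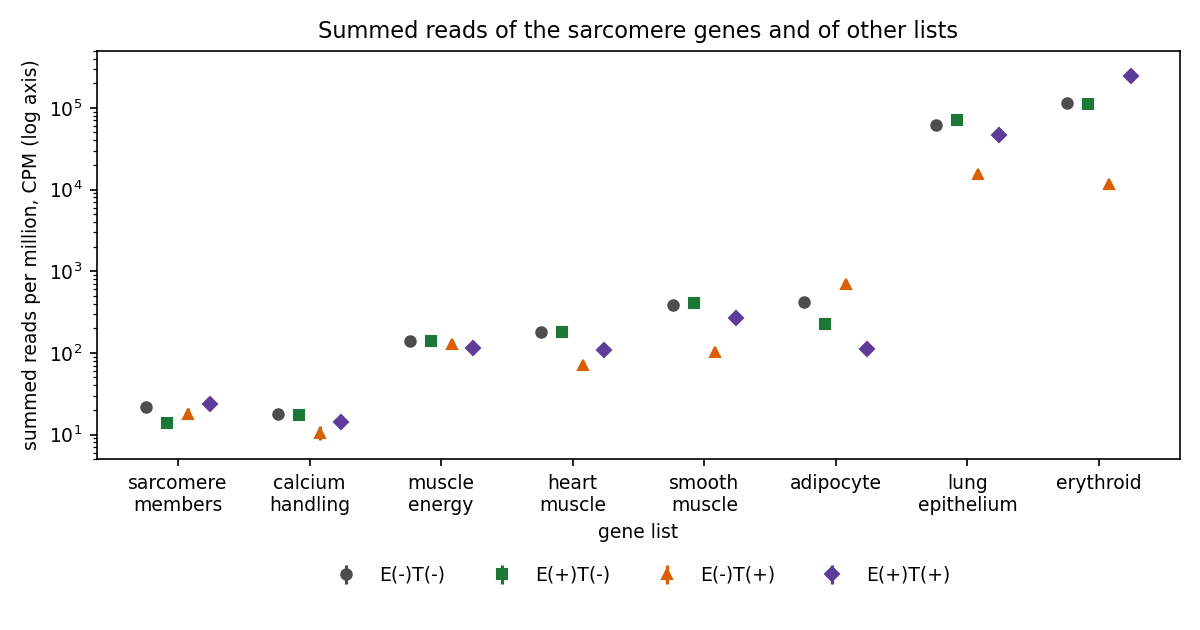
Summed CPM (log axis) of the 10 sarcomere genes and of 7 other gene lists in each library, with 95% Wilson intervals that are mostly smaller than the points. The sarcomere genes lie between 14.0 and 23.9 CPM on this scale of library totals, and E(-)T(+) is lowest for heart muscle, smooth muscle, lung epithelium and erythroid genes.

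Summed over the 10 genes, levels in CPM were 21.7 (95% Wilson interval 19.4 to 24.4), 14.0 (12.1 to 16.2), 18.1 (15.5 to 21.0) and 23.9 (21.4 to 26.6). E(+)T(-) was lowest, and its interval did not meet those of E(-)T(-) and E(+)T(+). On the authors' normalized scale the sums were 240.3, 164, 185 and 372, so that E(+)T(+) stood further above the other libraries than in CPM. Myoz2 alone gave 89 of the 283 reads in E(-)T(-), and without it the sums were 14.9, 9.70, 15.3 and 20.6 CPM. The sum of the heart muscle list was 180, 179, 71.2 and 107 CPM, which differs in order from the sum of the sarcomere genes, since it was lowest in E(-)T(+) and alike in both tumor-free libraries. Smooth muscle genes summed to 388, 411, 103 and 268 CPM. Adipocyte genes summed to 414, 226, 699 and 111 CPM, lower in each exercise library than in its sedentary counterpart, and no gene of that list was at 0 in all 4 libraries. In E(-)T(+), Fabp4 gave 5709 of the 6536 reads of that list. Without Fabp4 the list summed to 223, 164, 88.4 and 80.7 CPM, while its normalized sums were 2469, 1923, 907 and 1262, so that the order of both tumor libraries depended on the scale.

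Genes of highest level in these lists show how they moved beside the sarcomere genes. Of heart muscle, Tnnt2 had 377, 320, 208 and 375 reads, Actc1, the cardiac actin, had 516, 570, 51 and 188, and Myh6, the atrial heavy chain, had 241, 241, 80 and 246. Actc1 thus did not follow Acta1 in every comparison: it differed by 0.26 for exercise without tumor and by -1.25 for tumor with exercise, against -1.72 and 3.63 for Acta1. For tumor without exercise the values were -2.95 for Actc1 and 0.27 for Acta1. For exercise with tumor both were higher, by 1.955 for Actc1 and 1.64 for Acta1. Of smooth muscle, Acta2 had 2280, 2382, 323 and 1559 reads, Myh11 726, 717, 78 and 534, and Tagln 535, 714, 170 and 452. Fat genes were led by Fabp4, which endothelium also makes, with 2490, 794, 5709 and 403 reads, Cfd with 951, 570, 398 and 335, and Lipe with 655, 896, 109 and 329. The highest lung epithelium genes, Scgb1a1, Sftpc and Sftpa1, had 106839, 11268 and 5242 reads in E(-)T(+), where the other libraries held at least 450633, 69686 and 30374. Hba-a1, Hbb-bs and Hbb-bt led the erythroid list, with 77080, 21086 and 6072 reads in E(-)T(+), where E(+)T(+) held 2283153, 689693 and 246391. Reads of these epithelium and erythroid genes are approximate, since counts this high were not resolved to 1 read.

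Other sarcomere genes were read from a list of 29, of which 19 passed the filter. This list holds genes of fast fibres and also genes that heart muscle or other cells make, so that its counts are not those of fast fibres alone. Past the limit were 3 upward and 2 downward for exercise without tumor, 5 and 8 for tumor without exercise, 11 and 3 for exercise with tumor, and 4 and 5 for tumor with exercise. Shares of all filtered genes, in the same order, were 5.28% and 4.7%, 20.6% and 25.7%, 24.3% and 17.7%, and 14.9% and 13%. Some upward genes of the list had reads at or under the floor in both libraries compared. They were Tnnc2 and Klhl40 for exercise without tumor, Myh8 for tumor without exercise and Myh13 for exercise with tumor. These passed the filter through their reads in other libraries. Median differences of the 19 genes were 0.12, -0.59, 1.13 and 0.69. Tropomyosins that many cell types make led this list by level, with 4550, 4580, 4983 and 3298 reads for Tpm1 and 543, 528, 647 and 815 for Tpm2. Ttn, titin, the elastic filament of heart and skeletal muscle, had 164, 163, 58 and 85 reads. Genes that mark fibres more closely were low and went different ways. Tnnc2, the calcium sensor of fast troponin, had 0, 2, 8 and 38 reads, Neb, the thin filament ruler nebulin, had 3, 5, 13 and 28, and Myh8, the perinatal heavy chain, had 0, 0, 1 and 30. These genes were highest in E(+)T(+), as were Acta1, Tnnt3 and Actn3. Others of the list were not: Myl1, the fast essential light chain, had 12, 18, 1 and 5 reads, Mybpc2, the fast myosin-binding protein C, 6, 16, 0 and 4, and Klhl40, which stabilizes thin filament proteins, 1, 3, 56 and 5. Myh3, the embryonic heavy chain, had 13, 0, 2 and 0 reads, Klhl41 3, 3, 15 and 2, and Tmod4 11, 9, 6 and 0. All of these were singled out after their values were seen. Myom2, an M-band protein, was lower with exercise without tumor (-1.15) and higher with it (1.15) on the deposited scale, the direction of Acta1, Tnnt3 and Ckm, and Klhl40 was past the limit in the other direction, although its libraries without tumor held 1 and 3 reads, at or under the floor.

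Slow sarcomere genes (7 of 8 passed the filter) had none past the limit for exercise without tumor, 2 upward and 2 downward for tumor without exercise, 2 upward for exercise with tumor and 1 upward for tumor with exercise. For this list and the next, the shares of all filtered genes were again 5.28% and 4.7%, 20.6% and 25.7%, 24.3% and 17.7%, and 14.9% and 13%. Myh7, the slow and cardiac heavy chain, had 375, 281, 52 and 191 reads, Myh7b 85, 129, 178 and 120, and Tpm3, a tropomyosin of many cell types, 4896, 4570, 5356 and 5974. Of 15 genes of calcium handling and of other ion channels of the fibre, 8 passed the filter, and none was past the limit for exercise without tumor, where Cacna1s was. For tumor without exercise 3 were lower, for exercise with tumor 4 were higher and 1 lower, and for tumor with exercise 2 were lower. Atp2a1, the calcium pump of fast fibres, had 87, 66, 37 and 93 reads, Cacnb1, the beta subunit that joins Cacna1s in the calcium channel, had 46, 52, 18 and 36, and Jph1, which holds the calcium store at the membrane, had 15, 22, 10 and 12. Cacnb1 thus did not share the low value of Cacna1s in E(-)T(-), with a difference of 0.28 (-0.31 to 0.89) for exercise without tumor against 2.83 for Cacna1s.

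Genes of muscle energy supply passed the filter in 15 of 16 cases, with 1 upward and 3 downward past the limit for exercise without tumor, 2 and 8 for tumor without exercise, 8 and 0 for exercise with tumor, and 4 and 2 for tumor with exercise. For this list and the regulators below, the shares of all filtered genes are those given above for the same comparisons. Ckmt2, the mitochondrial partner of Ckm, had 49, 13, 6 and 23 reads, the same order of libraries as Ckm, and its differences were -1.73 and 1.87 for exercise without and with tumor against -2.19 and 2.13 for Ckm. Slc2a4, the insulin-dependent glucose transporter of muscle and fat, had 29, 11, 11 and 22 reads and exercise effects of -1.22 without tumor and 1.02 with it, where the interval of the second (-0.01 to 2.28) held 0. Ckmt2 and Slc2a4 were singled out after their values were seen. Cox6a2, a subunit of cytochrome oxidase in heart and skeletal muscle, had 486, 628, 183 and 667 reads, Ak1, a kinase of adenine nucleotides, had 196, 143, 522 and 260, and Phka1, a phosphorylase kinase subunit, had 207, 180, 85 and 99. Of 16 myogenic regulators and fibre maintenance genes 8 passed the filter, led by the widely expressed factors Mef2a (2002, 1686, 989 and 1271 reads), Srf (1268, 1699, 1194 and 1588) and Mef2c (1457, 1582, 361 and 1226). Past the limit were 1 upward, 4 upward and 1 downward, 1 upward and 3 downward, and 1 upward in the 4 comparisons as ordered above. Chrna1, a subunit of the muscle acetylcholine receptor singled out after its values were seen, had 16, 41, 755 and 30 reads and exercise effects of 1.41 without tumor and -4.52 with it, opposite to those of Acta1.

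Genes that were not among the 10 were also ranked by how closely their log2 profile over the 4 libraries, centred on its mean, followed the median profile of the 10 genes, which was -0.29, -0.46, -0.10 and 0.94. The 5 closest of 12937 genes with a mean normalized read count of at least 20 were Mocs1, Ifitm2, Tctex1d4, Csf2rb2 and Lsp1, at Euclidean distances of 0.066, 0.084, 0.12, 0.13 and 0.13 on the log2 scale over 4 libraries. Of the genes ranked, 217 lay within a distance of 0.5. Only Actn3 of the 10 did, at 0.46, and Cacna1s was farthest, at 2.13, so that the median profile is not the profile of most of the 10 genes.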

How the data were processed

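Lung RNA of 4 groups, 1 library each, was read by 3' mRNA sequencing (QuantSeq). The authors aligned reads with Bowtie2, counted them with bedtools and normalized the counts by the quantile method of edgeR. The genome build was mm10 per the submitters' processing notes, and versions, annotation and use of strand are not given in the sources used here. The deposited values are log2(normalized read count + 1). Whole reads were recovered by inverting the quantile adjustment (dispersion 0.372, fitted to 12 patterns and 1500 rows): all values were met within 0.001, and 97.8% were resolved to 1 read. The remaining, highest values and the library totals are approximate in their last digits. The inversion was tested on simulated data. Differences were taken between deposited log2 values, which understates the change of low genes. The limit was a difference of at least 2-fold, applied to 15164 genes with a mean normalized read count of at least 4. The study names the same fold and count, and the use of a mean over the 4 libraries was chosen here. Its counts of lung genes past the limit were not reproduced. They are lower than the 1513 found here for exercise without tumor and the 6371 for exercise with tumor. Exact (Clopper-Pearson) intervals of read ratios, scaled by effective library sizes, and Wilson intervals of shares are at 95% and cover counting error only. No test across libraries was made, and no p-value is given. Alternatives were a pseudocount of 4, no filter or a mean of at least 20, and 4 other scalings. Named were all 10 genes, the 3 highest genes of each of 10 lists (139 of 140 listed genes were found) and the 5 genes of closest profile, with any other gene named after its values were seen. The 10 genes and the lists were chosen with earlier results of these data known. Python 3.11.15, numpy 2.4.6, scipy 1.17.1, pandas 2.3.3 and matplotlib 3.10.9 were used.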

Additional observations from a re-analysis of the deposited data

Results flagged for a closer look

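Exercise effects on 6 of the 8 sarcomere genes that passed the filter had opposite signs without and with tumor on the deposited scale, beside 49.8% of all filtered genes, and the difference between the effects was not tested, since each rests on 1 pair of libraries. Acta1 differed by -1.72 without tumor and by 1.64 with tumor on the log2 scale. Ckm differed by -2.19 and 2.13. Tnnt3 differed by -1.02 and 1.64, with an interval of the first that held 0. Myoz2 differed by -0.57 and 0.83, both within the 2-fold limit. Mylpf differed by -0.50 and 0.41 and Tnni2 by 0.51 and -0.30, all with intervals that held 0.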

How the results depend on the processing

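No paired analysis was possible because each group has 1 library. For the same reason no replicate could be left out. Over the alternatives tried no difference of the 10 genes reversed beyond its counting interval. Scaling by library totals brought the genes past the limit for exercise with tumor from 5 to 3, and the Acta1 difference there from 1.64 to 1.05. For exercise without tumor, the count of all genes past the limit was 1513 with the filter used, 2606 without a filter and 632 at a mean of at least 20. Library totals moved the median of all filtered genes to -0.59 for exercise with tumor and -0.41 for tumor with exercise, and the share of higher genes among those past the limit from 57.8% to 31.6% and from 53.5% to 28.2%. Small differences of Mylpf, Tnni2, Cacna1s, Myoz2, Actn3, Myh4 and Pvalb changed sign under a scaling in at least one comparison. The other counts of the 10 genes past the limit moved by at most 1, while the count above 0 went with library totals from 9 to 6 for exercise with tumor and from 10 to 7 for tumor with exercise. Depth limits the results most for Myh4 and Pvalb, which had at most 3 reads in any library, and for Cacna1s, with 2 reads in E(-)T(-).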
